A study of Ambystoma mexicanum with 12 samples.

Results

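The lasting response to wounding was taken here as what set all 9 wound arrays of the axolotl skin series apart from its 3 uninjured arrays, and in particular the genes whose difference had the same sign at every time sampled. Times are in days post injury (dpi). These 12 arrays are the whole series. The wound groups were full-thickness 2 mm punch wounds in the skin of adult axolotls of the white strain, biopsied at 2 dpi, 14 dpi and 21 dpi, and the reference was uninjured skin of the same strain, with n = 3 arrays in each of the 4 groups. RNA of the whole biopsy was measured on an axolotl Affymetrix array, and each value is a log2 intensity. A gene was called lasting when its limma comparison with uninjured skin had an adjusted p under 0.05 and the same sign at all 3 times.

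The labels name no agent or genetic change that sets the groups apart. The makeup of the biopsies may also have differed, since the level of muscle markers varied between them, as given below. The description label of the arrays titled 14 days reads 7 days, and the title was followed. The study's methods name 3 separate adult male animals, while the labels' treatment text describes an experiment of another kind on pooled tissue, so the SD and the p-values below measure the spread between arrays, which may be partly technical. All 3 comparisons use the same 3 uninjured arrays, so passing at all 3 times is not 3 independent tests.

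Axolotls close skin wounds without a scar. Their wounds are first covered by migrating epidermis. As in other vertebrates, blood leukocytes enter, macrophages then clear debris, and fibroblasts deposit and crosslink new collagen matrix that is remodelled later. Lysosomes, where engulfed material is digested, are abundant in macrophages, whereas DNA replication, ribosome production and mitochondrial respiration are carried by dividing and metabolically active cells of all kinds.

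The arrays had medians of 5.52 to 5.61 and correlated at r = 0.924 to 0.994. The arrays with the lowest mean correlation with their own group (0.975) were uninjured replicate 3 and 14 dpi replicate 2, and 14 dpi replicate 2 was closest to 21 dpi replicate 1. Another array stood close to its group. At the 813 probes (the array's probe sets) where 21 dpi replicates 1 and 2 differed by more than 2-fold, 21 dpi replicate 3 lay between them in 99.5%, at a median of 0.55 of the way from the lower to the higher value (quartiles 0.43 and 0.66). In the other 11 arrays that share ran from 1.65% to 74.7%, and the SD of the difference from the mean of the other arrays of the group was 0.16 for 21 dpi replicate 3, against 0.34 to 0.52 for the others. The source of this closeness was not tested. The total lasting counts and some others are given with and without that array, and the rest include it. Skeletal muscle markers varied between biopsies: their mean deviation over 56 genes was -0.26, -1.56 and -1.85 at 2 dpi, -0.60, 0.71 and -0.84 at 14 dpi, 1.22, 0.22 and 0.76 at 21 dpi, and 1.35, 1.34 and -0.49 in uninjured skin. The troponin genes TNNI2 and TNNC2 and the kinase gene CKM stood at the 94.6 to 98.4 percentile of all probes, beside the epidermal genes COL17A1 and DSP at 97.4 and 98.4, while the keratins KRT5 and KRT14 have no probe with that symbol. In whole biopsies, more RNA per cell and more cells of a type cannot be told apart.

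Of the 8639 genes with a symbol on the array, 103 were higher than in uninjured skin at all 3 times (1.19% of the genes tested) and 69 were lower (0.799%). By contrast, 2025 genes (23.4%) passed at 1 or more of the 3 times. Passing at all 3 times is the stricter rule, and a gene that missed the threshold at a time may still have changed then. Over all 20035 probes, 210 were lasting and higher (1.05%) and 139 lasting and lower (0.694%). Taking the mean of the 3 wound groups in a single comparison, 567 genes (6.56%) were higher and 445 (5.15%) lower. In all 103 and all 69 lasting genes every wound array lay on the same side of every uninjured array, a separation found in 303 (3.51%) and 271 (3.14%) of all genes. The lasting genes were chosen from these same values, so their separation is a description and no further support.

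The number of lasting genes depended on single arrays. Without 21 dpi replicate 3 it was 56 higher and 37 lower, all of them among the 172. Leaving out each array in turn gave 43 to 174 higher and 25 to 142 lower genes, with the lowest counts without uninjured replicate 2 for the higher genes and uninjured replicate 1 for the lower genes, and the highest without uninjured replicate 3. In every one of those 12 fits 32 higher and 19 lower genes kept the call, and these 51 are called stable below. Adjusting the largest of the 3 p-values of each probe, a stricter reading of a lasting change, left 13 higher and 9 lower genes. A stable gene need not pass that reading: HMOX1, COL11A1 and SALL4 are stable but did not (adjusted p = 0.0632, 0.0804 and 0.0887 in limma).

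**Figure D1:**
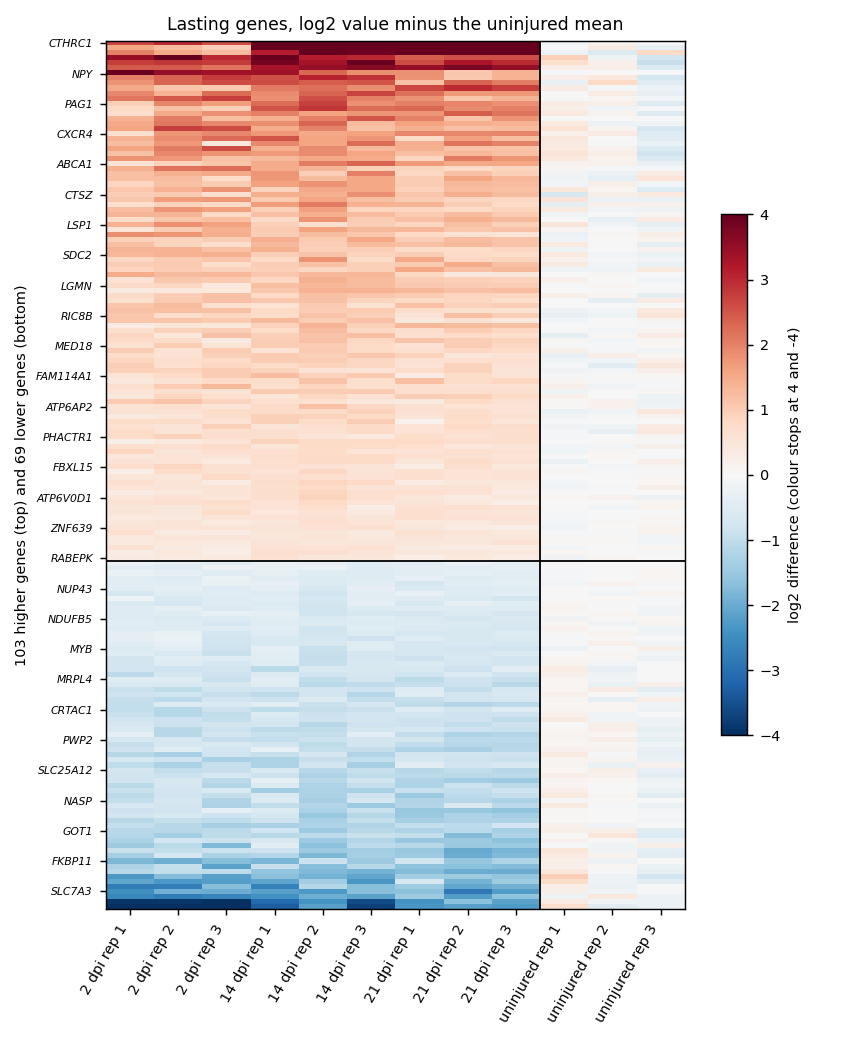
The 172 lasting genes (rows, 103 higher above and 69 lower below the horizontal line, a subset named) in the 9 wound arrays and the 3 uninjured arrays (columns), as log2 value minus the uninjured mean. Wound columns are red above the line and blue below it in every group, and the largest average changes are those of CTHRC1 (4.25) and GNG13 (-3.21).

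The largest average rises among the lasting genes were those of CTHRC1 (log2 4.25), COL11A1 (3.78), TMEM45A (3.27), PALLD (3.17), HMOX1 (3.17) and PAMR1 (3.14), which do not belong to a single group. TMEM45A is not stable and kept the call in 8 of the 12 fits with an array left out, while the others named are stable. CTHRC1, a secreted glycoprotein of injured tissue, had log2 intensities of 9.42, 11.59 and 12.16 (lowest, median and highest) over the 9 wound arrays, against 6.74, 6.96 and 6.85 in uninjured skin. It was 6.68-fold, 26.6-fold and 38.5-fold higher at 2, 14 and 21 dpi, with a largest adjusted p of 2.47e-06 in limma, the smallest among the genes discussed here. PAMR1, a secreted protein with a protease-like domain, lay at 6.90, 8.26 and 8.55 over the wounds, against 5.04, 5.03 and 4.21 in uninjured skin. Its log2 change was 2.34, 3.49 and 3.60 at the 3 times (SE 0.21). Both are stable, and in both every wound array lay above every uninjured array, as in all 103 lasting higher genes.

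The gene lists used below were chosen with earlier results of these data known, so their shares beside that of all genes are a description. Collagen processing enzymes and chaperones held 5 lasting genes among 25 measured (20%, against 1.19% of all genes), all higher. P4HA1, a prolyl 4-hydroxylase subunit that readies collagen chains for folding, read 9.23, 9.59 and 10.17 over the wounds, against 8.24, 8.59 and 8.25 in uninjured skin, and was 2.44-fold higher on average (log2 1.29, SE 0.11, adjusted p = 0.00018 in limma). The lysyl hydroxylases PLOD1 and PLOD2, which prepare collagen for crosslinks, were 1.84-fold and 3.36-fold higher on average. TLL1, a tolloid protease that trims procollagen, had log2 changes of 0.97, 2.53 and 2.07 at 2, 14 and 21 dpi. A rise at 2 dpi is part of the definition of these 5 genes. Over all 25 genes of the list, 5 were higher and 3 lower at 2 dpi, with a median change of 0.13. All 5 lasting genes passed without 21 dpi replicate 3, and 4 are stable (PLOD1, P4HA1, TLL1 and PCOLCE2), while adjusting for the muscle markers left 2. PCOLCE2, an enhancer of procollagen cleavage, rests on its brighter probe, which averaged 4.60-fold higher. A second PCOLCE2 probe had log2 changes of -4.04, -1.57 and 0.31 at the same times, so the probes of this gene disagree.

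Of 29 collagens measured, COL11A1 and COL7A1 were lasting and higher (6.9%, against 1.19% of all genes). On average 8 were higher, against 6.56% of all genes, and none lower. At 2 dpi, however, 7 were lower, against 4.54% of all genes, and 3 higher, against 6.22%. The median change of the collagens was -0.05 at 2 dpi and 1.11 at 21 dpi. Of the 29, 4 were called in opposite directions at different times, against 0.752% of all genes. COL11A1, a fibrillar collagen best known from cartilage, stood at 5.75, 5.47 and 5.20 at 2 dpi, 8.42, 9.37 and 8.74 at 14 dpi and 9.71, 9.66 and 9.61 at 21 dpi, against 4.23, 4.57 and 3.85 in uninjured skin. It was thus 2.39-fold higher at 2 dpi and 43.6-fold higher at 21 dpi. A dimmer COL11A1 probe changed by -0.20, 1.02 and 1.42 and was not called lasting. COL7A1, the collagen that anchors the epidermis to the dermis, was 3.10-fold higher on average but close to the threshold (largest adjusted p = 0.0494 in limma), and it lost the call without 21 dpi replicate 3 (adjusted p = 0.0764).

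Of the other genes the study names, COL1A1, COL12A1 and LOXL2 were not lasting. COL12A1 had log2 changes of -3.12, 0.07 and 1.41 at 2, 14 and 21 dpi. Its fall at 2 dpi and its rise at 21 dpi passed (adjusted p = 0.00159 and 0.047 in limma). COL1A1, the main dermal collagen chain, had log2 changes of -1.23, 1.52 and 2.38 at 2, 14 and 21 dpi, of which the last passed (adjusted p = 0.0127 in limma). LOXL2, which crosslinks collagen, read 7.92, 8.21 and 7.84 at 2 dpi, against 8.13, 7.59 and 7.87 in uninjured skin, and was higher at 14 and 21 dpi by 2.07 and 2.79. VIM, a filament protein of mesenchymal cells, had changes of -0.10, 0.56 and 0.65. TP63, a regulator of basal epidermis, passed at no time, with changes of 0.50, -0.04 and -0.33.

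**Figure D2:**
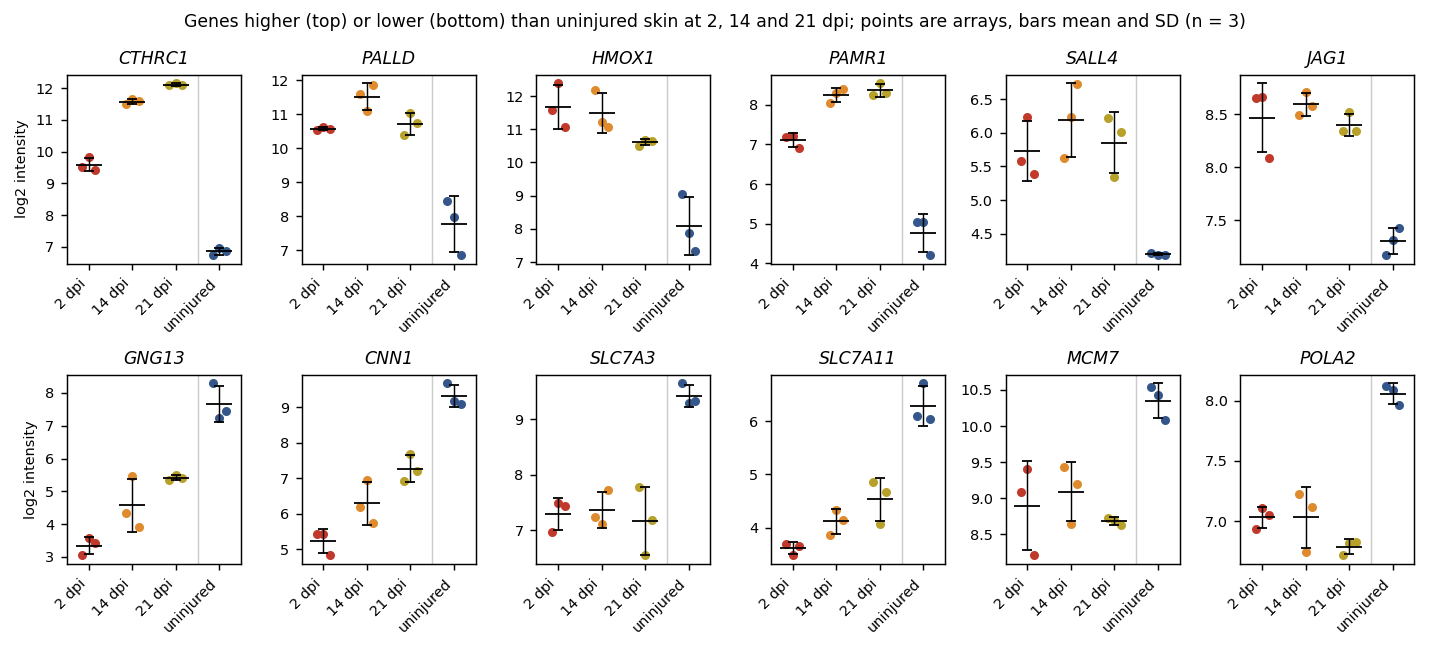
Log2 intensity of 12 genes in each array (points), with the mean and SD of each group (bars, n = 3 arrays), for wounds at 2, 14 and 21 dpi and for uninjured skin. The axis of each panel has its own range and does not start at 0. Uninjured arrays lie below every wound array for the genes of the upper row and above every wound array for those of the lower row.

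The lysosomal and macrophage lists held the most lasting rises by number, 10 and 7 genes. Of 25 macrophage and monocyte genes measured, 7 were lasting and higher (28.0%, against 1.19% of all genes) and none lower. On average 15 of the 25 were higher, against 6.56% of all genes. HMOX1, which breaks down haem, had 10.50, 11.08 and 12.39 over the wounds, against 9.04, 7.87 and 7.34 in uninjured skin. It was 12.1-fold, 10.6-fold and 5.75-fold higher at 2, 14 and 21 dpi (largest adjusted p = 0.00666 in limma). AIF1, the macrophage marker also called IBA1, was higher by 1.55, 1.15 and 0.85, and SLC11A1, a metal transporter of phagosomes, by 1.49, 1.28 and 0.92. Neither AIF1 nor SLC11A1 is stable, and both lost the call without 21 dpi replicate 3 (adjusted p = 0.106 and 0.0783 in limma). HMOX1 also stands in the list of immediate early, hypoxia and stress genes. CSF1R, the receptor that defines the lineage, was 0.47 higher on average (adjusted p = 0.0285 in limma) but not lasting, and the defining genes C1QA and MPEG1 have no probe with that symbol.

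Of 53 lysosomal enzymes and proton pump subunits, 10 were lasting and higher (18.9%, against 1.19% of all genes) and none lower. Of these 10, 4 (ACP5, LGMN, NPC2 and PSAP) also stand in the macrophage list. LGMN, a lysosomal endopeptidase, read 11.55, 12.19 and 12.49 over the wounds, against 11.07, 11.24 and 11.18 in uninjured skin. PSAP, the precursor of the saposins that help degrade sphingolipids, read 12.73, 12.88 and 13.09 over the wounds, against 12.26, 12.36 and 12.20 in uninjured skin. Its rise was small, 1.55-fold on average, with an SE of 0.06. The cathepsin gene CTSC was 1.70-fold higher on average, and 4 subunits or partners of the proton pump that acidifies lysosomes (ATP6V1H, ATP6AP2, ATP6V0D1 and ATP6V1D) were higher by 0.49 to 0.70. The median average change over the 53 genes was 0.32, against 0.01 over all genes.

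Of 10 neutrophil, granulocyte and phagocyte oxidase genes, only CYBB was lasting and higher (10%, against 1.19% of all genes), a count too small to compare. The list had median changes of 0.52, 0.06 and -0.03 at 2, 14 and 21 dpi. On average 4 of the 10 were higher, against 6.56% of all genes, and none lower. The mean deviation of this list was 0.33 to 0.79 at 2 dpi, -0.15 to 0.27 at 14 dpi and -0.25 to 0.06 at 21 dpi. In uninjured skin it was -0.57 to -0.41, without overlap with the wounds. CYBB, the catalytic subunit of the phagocyte oxidase, read 8.29, 9.17 and 9.93 over the wounds, against 7.18, 7.29 and 7.05 in uninjured skin, and its rise was 5.44-fold at 2 dpi and 2.67-fold at 21 dpi. CD53, a leukocyte tetraspanin that stands in none of the lists, was 1.53 higher on average, and lost the call without any one of the 21 dpi arrays (adjusted p = 0.0626, 0.0661 and 0.0672). LCP1, an actin bundling protein of leukocytes, was 0.97 higher on average. Of 10 lymphocyte and antigen presentation genes none was lasting, a count too small to set against 1.19% of all genes.

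The mean deviation of the macrophage list was -0.17 to 0.14 at 2 dpi, 0.28 to 0.51 at 14 dpi and 0.13 to 0.24 at 21 dpi, against -0.63 to -0.46 in uninjured skin, without overlap. The lysosomal genes moved with it, but both lists share members, among them ACP5, LGMN, NPC2 and PSAP. The part of the macrophage genes in the lysosomal rise was not tested. Without 21 dpi replicate 3 the lasting genes were 4 in the macrophage list and 6 in the lysosomal list. With each array left out in turn they were 3 (without uninjured replicate 2) to 8 and 5 (without 2 dpi replicate 2) to 12, and the stable ones were HMOX1, PSAP and LGMN, with CTSC and ATP6V1D. Adjusting for the muscle markers left 3 and 2.

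**Figure D3:**
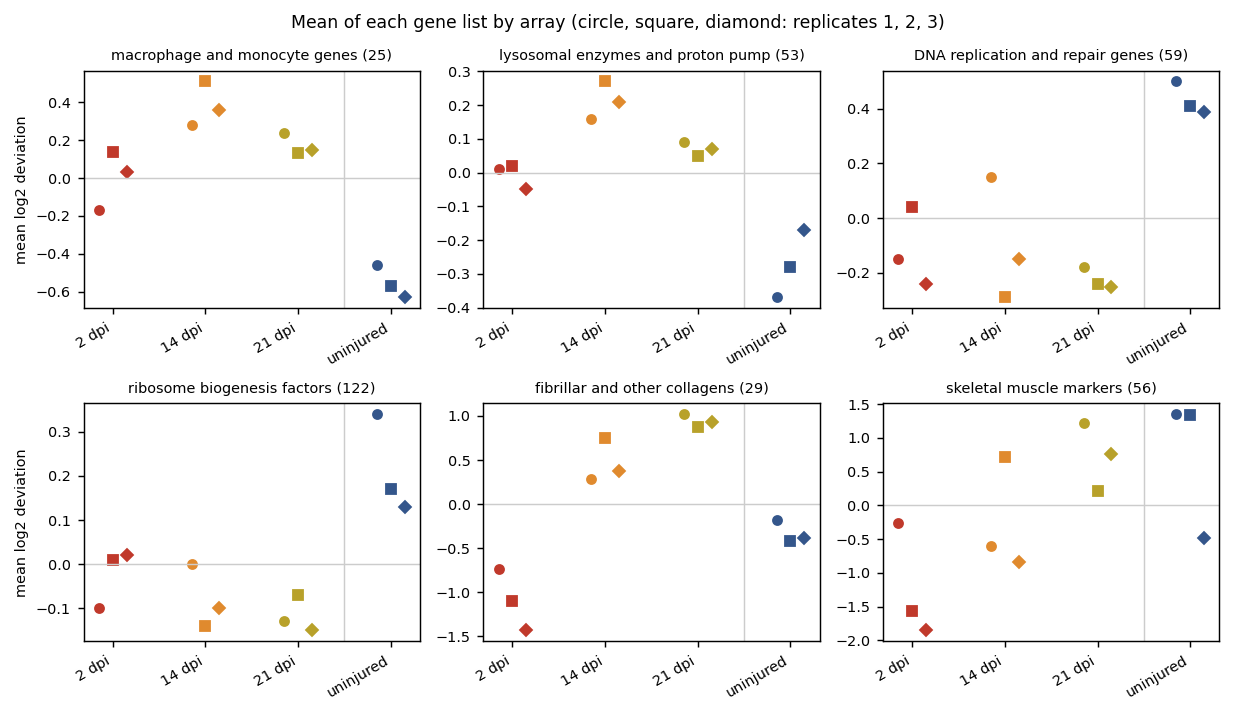
Mean over the members of 6 gene lists (number of genes in brackets) of the log2 deviation from each gene's mean over all arrays, for every array of the wounds at 2, 14 and 21 dpi and of uninjured skin. Symbols mark the replicate number. The macrophage and lysosomal means of every wound array lie above those of uninjured skin and the replication and ribosome biogenesis means below it, the collagen means lie below it at 2 dpi and above it at 14 and 21 dpi, and the muscle means overlap.

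Of 58 genes of the actin and tubulin cytoskeleton, 4 were lasting and higher (6.9%, against 1.19% of all genes) and none lower. PALLD, a scaffold of actin bundles, had 10.39, 10.74 and 11.87 over the wounds, against 8.46, 7.98 and 6.86 in uninjured skin, and was 7.02-fold, 13.5-fold and 7.75-fold higher at 2, 14 and 21 dpi. RHOA, a switch protein for contractile actin fibres, was 1.43-fold higher on average, with 12.38 to 12.63 over the wounds and 11.95 to 12.07 in uninjured skin. The changes of PALLD, LCP1 and RHOA are stable. CXCR4, a receptor that guides cell migration toward CXCL12, read 6.95, 8.08 and 8.28 over the wounds, against 6.51, 6.65 and 5.79 in uninjured skin, and was 3.18-fold higher on average. The CXCR4 call was lost without 2 dpi replicate 2 (adjusted p = 0.0694) and without 2 dpi replicate 3 (adjusted p = 0.0617).

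Of 62 genes of Wnt, FGF, Hedgehog, Notch and growth factor signalling, JAG1 and ANGPTL2 were lasting and higher (3.23%, against 1.19% of all genes), and both are stable. JAG1, a ligand of the Notch receptors, read 8.09, 8.52 and 8.71 over the wounds, against 7.17, 7.31 and 7.42 in uninjured skin, and its rise hardly varied, being 2.24-fold, 2.44-fold and 2.14-fold at 2, 14 and 21 dpi. DACT1, a regulator of Wnt signalling, was 4.02-fold higher on average on its brighter probe, while a dim second probe changed by -0.03, -0.12 and -0.21. In the list of 42 TGF-beta and BMP genes, TGFBR1, a receptor kinase of the pathway, and PMEPA1, a feedback inhibitor induced by it, were lasting and higher (4.76%, against 1.19% of all genes), by 0.78 and 1.66 on average. Neither is stable, and both lost the call without 21 dpi replicate 3 (adjusted p = 0.0695 for TGFBR1 and 0.103 for PMEPA1). NPY, a neuropeptide, had its largest value at 2 dpi: it read 7.90, 7.46 and 7.30 there, 7.34, 6.24 and 5.81 at 14 dpi and 5.79, 5.05 and 5.35 at 21 dpi, against 3.90, 3.97 and 3.97 in uninjured skin. NPY too lost the call without 21 dpi replicate 3 (adjusted p = 0.0638).

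SALL4, the zinc finger transcription factor that the study followed, stands in the list of 40 limb, blastema and stem cell transcription factors. That list held 1 lasting rise, that of SALL4 (2.5%, against 1.19% of all genes), and 1 lasting fall, that of MYC. Counts of 1 are too small to set against the share of all genes. SALL4 read 5.58, 6.24 and 5.39 at 2 dpi, 5.63, 6.23 and 6.72 at 14 dpi and 6.22, 5.34 and 6.01 at 21 dpi, against 4.21, 4.19 and 4.19 in uninjured skin. All 9 wound arrays were thus higher, by 2.91-fold, 3.99-fold and 3.16-fold on average at the 3 times (adjusted p = 0.0125, 0.00486 and 0.00776 in limma), and the difference of 0.12 between 21 and 2 dpi did not pass (adjusted p = 0.837). The uninjured values lie close to the lower quartile of all values on the arrays, 4.08, so that the fold change depends on the background. The call is stable, but was lost when the mean of the muscle markers was added to the fit (log2 change 1.78, adjusted p = 0.132). It was also lost with the epidermal marker mean as an added term (1.72, adjusted p = 0.0542), and when the largest of the 3 limma p-values was adjusted (0.0887). A second SALL4 probe, with 4.36 over the wounds and 4.38 in uninjured skin, showed changes of -0.15, 0.04 and 0.07.

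Of 59 DNA replication and repair genes measured, 6 were lasting and lower (10.2%, against 0.799% of all genes) and none higher. On average 30 of the 59 were lower, against 5.15% of all genes, and the median average change was -0.52. MCM7, a subunit of the replicative helicase, read 8.21, 8.73 and 9.43 over the wounds, against 10.54, 10.43 and 10.08 in uninjured skin, and was 2.74-fold lower on average. POLA2, a subunit of the polymerase that primes DNA synthesis, read 6.72, 6.94 and 7.23 over the wounds, against 8.12, 8.09 and 7.96 in uninjured skin (2.15-fold lower, largest adjusted p = 0.00112 in limma). The other lasting members were FEN1, RAD51AP1, RPA1 and TYMS, which act in flap removal, recombination, single-strand binding and thymidylate synthesis, with average changes of -0.81 to -1.20. Of 66 mitosis and cyclin genes, 21 were lower on average, against 5.15% of all genes. Among the 66, CCND1, CDC25A and SMC2 were lasting and lower (4.55%, against 0.799% of all genes). None of these 3 is stable or kept the call with the muscle covariate, and 2 kept it without 21 dpi replicate 3. CDC25A, a phosphatase that licenses entry into S phase, changed by -1.10, -1.43 and -1.72 at 2, 14 and 21 dpi.

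In each array the mean of the replication list was lower in wounds, -0.29 to 0.15, than in uninjured skin, 0.39 to 0.50. The epidermal marker mean was -0.49 to 0.45 in wounds and -0.04 to 0.07 in uninjured skin. With it as a covariate, POLA2, MCM7, RAD51AP1, RPA1 and TYMS kept the lasting call and FEN1 lost it. Whether the share of epidermis had a part in the lower list mean was not tested. POLA2 is the stable member. Without 21 dpi replicate 3 there were 4 lasting members, and with each array left out in turn 1 (without uninjured replicate 1) to 9 (without uninjured replicate 3), while the muscle covariate left 1.

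Of 122 ribosome biogenesis factors, a list drawn up after lasting members had been seen, 8 were lasting and lower (6.56%, against 0.799% of all genes) and none higher. On average 36 of the 122 were lower, against 5.15% of all genes. RRP9, a small nucleolar ribonucleoprotein subunit, read 6.93, 7.11 and 7.24 over the wounds, against 8.31, 7.81 and 7.73 in uninjured skin. Of 58 cytosolic ribosomal proteins none was lasting or called on average, and their median average change was -0.04. Of 52 respiratory chain genes, CYCS, NDUFB5, NDUFV1 and SDHA were lasting and lower (7.69%, against 0.799% of all genes). NDUFB5, a subunit of complex I, read 10.67, 10.78 and 10.90 over the wounds, against 11.22, 11.41 and 11.43 in uninjured skin, a fall of 1.47-fold on average. CYCS, cytochrome c, fell further with time, with changes of -0.66, -0.91 and -1.55, although a dim second probe showed -0.01, 0.00 and -0.06. LDHB, a lactate dehydrogenase subunit of oxidative tissues, was 1.80-fold lower on average.

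These counts also rest on single arrays. For the ribosome biogenesis list the count was 4 without 21 dpi replicate 3, and 2 (without uninjured replicate 1) to 22 (without uninjured replicate 3) with each array left out. For the respiratory chain it was 2 without 21 dpi replicate 3, and 1 (without uninjured replicate 1) to 5 (without uninjured replicate 3). Muscle is rich in respiratory chain genes. The muscle marker mean was -1.85 to 1.22 in wounds and -0.49 to 1.35 in uninjured skin. With the muscle covariate 1 of the 4 respiratory chain genes and none of the 8 ribosome biogenesis genes kept the call. In that fit 1 other ribosome biogenesis gene gained it. CYCS, SDHA and NDUFV1 lost the call, though their changes stayed close in size. Their average log2 changes were -1.15, -0.62 and -0.49 with the covariate, against -1.04, -0.66 and -0.52 without it. Of all 172 lasting genes 47 kept the call with the muscle covariate. The part of muscle in these falls was not tested. RRP9, RRP7A, NDUFB5 and LDHB are stable.

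Among the 28 amino acid transporters, also listed after values were seen, 4 were lasting and lower (14.3%, against 0.799% of all genes). The list as a whole did not move one way: 6 members were lower and 2 higher on average, and the median average change was -0.05. Over all genes 5.15% were lower and 6.56% higher on average. Of the 4, SLC7A3, SLC7A11 and SLC25A12 are stable. SLC7A3, a transporter of arginine and lysine, read 6.55, 7.24 and 7.77 over the wounds, against 9.64, 9.28 and 9.32 in uninjured skin, and was 4.33-fold, 4.15-fold and 4.75-fold lower at 2, 14 and 21 dpi. SLC7A11, which imports cystine, was 6.40-fold, 4.49-fold and 3.38-fold lower, and at 2 dpi its values of 3.70, 3.48 and 3.65 were under the lower quartile of the arrays. SLC25A12, the mitochondrial aspartate and glutamate carrier, and GOT1, an aminotransferase of the same shuttle, changed by -0.94 and -1.15 on average. MYC, a transcription factor that drives growth and ribosome genes in many cells, read 4.65, 5.06 and 5.25 over the wounds, against 6.07, 6.09 and 5.67 in uninjured skin. It lost the call without 21 dpi replicate 3 (adjusted p = 0.0569).

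The largest average falls among the lasting genes were those of GNG13 (log2 -3.21) and CNN1 (-3.05), followed by SLC7A11 (-2.20), SLC7A3 (-2.14) and KIT (-2.01). GNG13, a G protein subunit of sensory cells, read 3.05, 3.57 and 3.42 at 2 dpi, 4.35, 5.48 and 3.91 at 14 dpi and 5.34, 5.5 and 5.4 at 21 dpi, against 8.29, 7.25 and 7.44 in uninjured skin. CNN1, calponin of smooth muscle, read 5.43, 5.43 and 4.83 at 2 dpi, 6.20, 6.94 and 5.73 at 14 dpi and 6.93, 7.68 and 7.19 at 21 dpi, against 9.67, 9.17 and 9.10 in uninjured skin. Both were lowest at 2 dpi, 19.8-fold and 17.0-fold below uninjured skin, and at 21 dpi were 4.75-fold and 4.14-fold lower. ACTA2, smooth muscle actin, was not lasting, with a log2 change of -4.74 at 2 dpi and 0.25 at 21 dpi (adjusted p = 0.727 in limma). KIT, a receptor of pigment cells and mast cells, read 5.59, 6.47 and 7.27 over the wounds, against 8.65, 8.13 and 8.40 in uninjured skin, and is not stable (adjusted p = 0.0607 without 21 dpi replicate 3 and 0.0779 without uninjured replicate 1). FKBP11, a prolyl isomerase of the secretory pathway, was 2.75-fold lower on average and is stable.

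**Figure D4:**
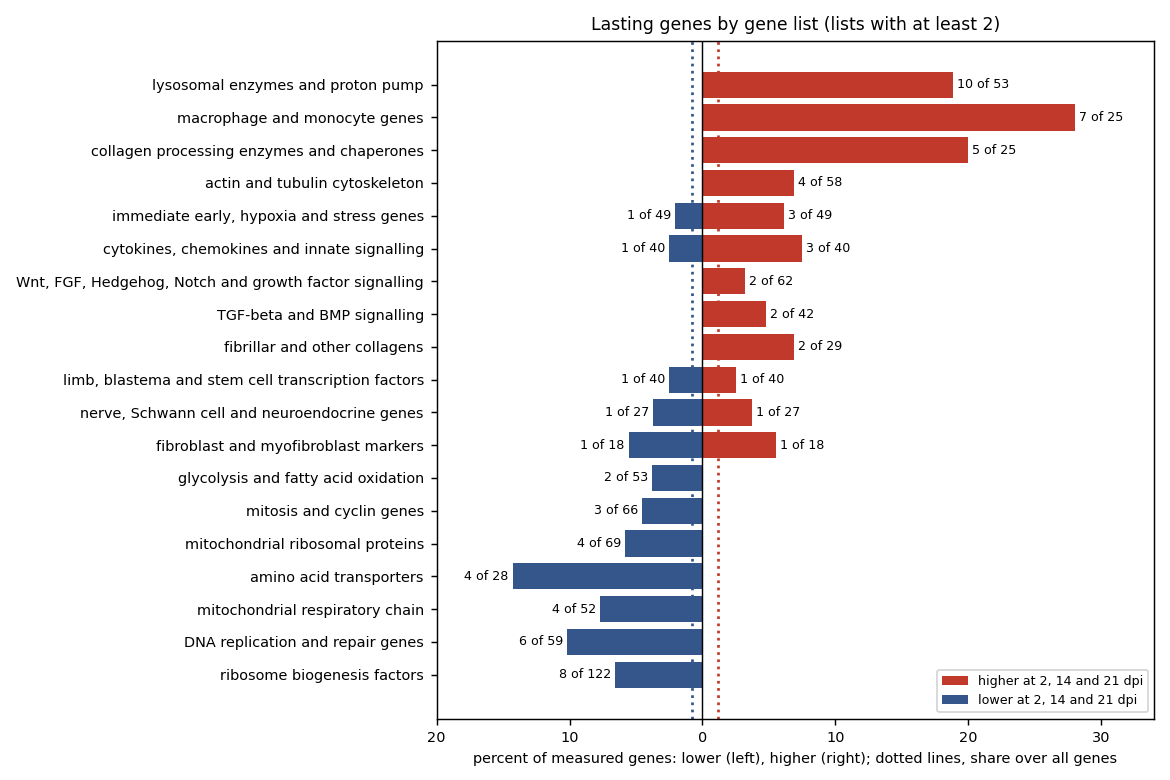
Percent of the measured genes of each list that were lower (bars to the left) or higher (bars to the right) than uninjured skin at 2, 14 and 21 dpi, for lists with at least 2 such genes, with the counts beside the bars. Dotted lines mark the share over all 8639 genes, 0.799% lower and 1.19% higher.

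Most lasting changes did not differ detectably in size between 21 and 2 dpi. Of the 103 higher genes, 11 had a larger change at 21 dpi than at 2 dpi by the limma test of that difference, 10 had a smaller one and 82 were not called. Of the 69 lower genes, 4 were further from uninjured skin at 21 dpi, 4 were closer and 61 were not called. Over all genes 940 (10.9%) were higher at 21 than at 2 dpi and 1248 (14.4%) lower. The median change of the higher genes was 0.91, 1.05 and 0.86 at 2, 14 and 21 dpi, and that of the lower genes -0.83, -0.86 and -0.91. At all 3 times 28 of the higher and 15 of the lower genes were at least 2-fold changed, and 16 in each direction were changed by less than 1.5-fold on average.

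**Figure D5:**
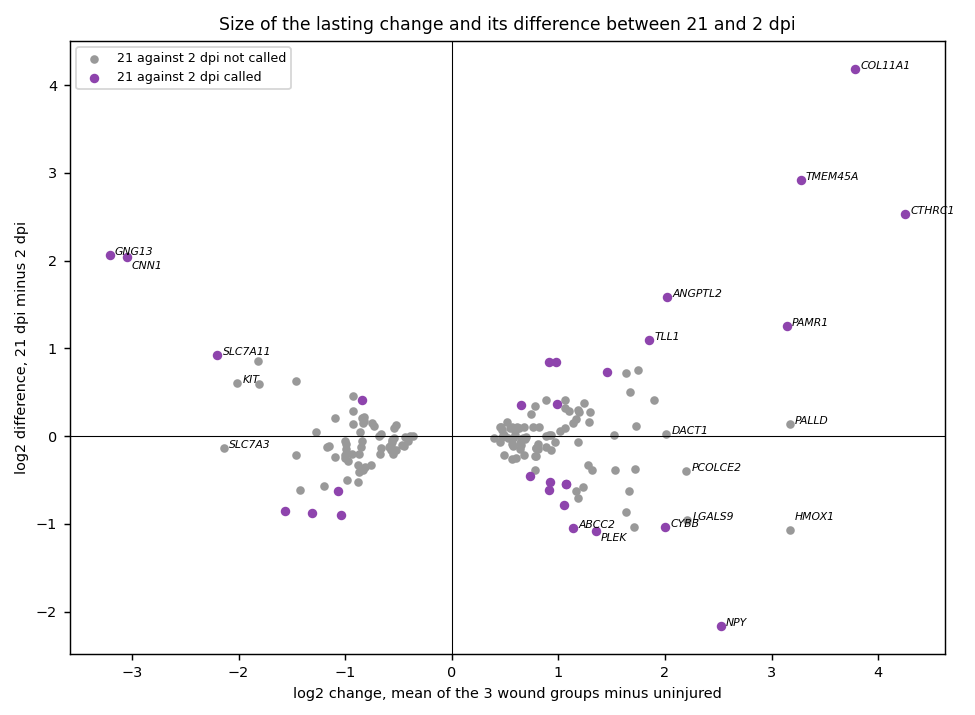
Each of the 172 lasting genes by its average log2 change over the 3 wound groups (horizontal axis) and by its log2 difference between 21 and 2 dpi (vertical axis), with genes called for that difference in purple. COL11A1 (4.19), TMEM45A (2.92) and CTHRC1 (2.53) grew the most, and NPY (-2.16) shrank the most among the higher genes.

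A smaller set turned round. In opposite directions at different times 65 genes (0.752%) were called, 40 of them lower at 2 dpi and higher later and 25 the other way. COL6A3, a chain of the beaded collagen of connective tissue, read 6.04, 3.98 and 3.61 at 2 dpi and 12.18, 11.94 and 12.10 at 21 dpi, against 10.40, 9.79 and 9.54 in uninjured skin. TAGLN, an actin-binding protein of contractile cells, had a log2 change of -4.20 at 2 dpi and 2.10 at 21 dpi. The average changes of COL6A3 and TAGLN over the 3 wound groups were -0.83 and -0.38 and did not pass (adjusted p = 0.315 and 0.438 in limma), while 6 of the 65 genes passed on average. Over probes, 128 (0.639%) were called in opposite directions, and 55 without 21 dpi replicate 3.

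Values on both sides of the threshold were close. TFPI, an inhibitor of coagulation, was the last higher gene inside, with an adjusted p of 0.0497 at 2 dpi, and BACH1, a haem-sensing repressor, the first outside, with 0.0511. Their changes at 2 dpi were 0.42 and 0.49. On the lower side MRPL19, a mitochondrial ribosomal protein, was inside (adjusted p = 0.050 at 14 dpi, change -0.37) and POLR2K, an RNA polymerase subunit, outside (0.0509 at 21 dpi, change -0.50). Of the 172 genes 40 had a further probe. Of those 52 further probes, 45 had the same sign of the average change, 11 were lasting in the same direction and none in the opposite one.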

How the data were processed

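The authors deposited 1 log2 value per probe set and array, after background correction, normalisation and summarisation by robust multi-array average (RMA). The labels name Affymetrix Expression Console and the study's methods an R package, and the sources used here do not give their versions. Of 20080 probe sets, 45 controls were left out, and for the other 20035 a linear model of 4 group means was fitted with limma 3.58.1 under R 4.3.3, with 8 residual and 2.43 prior degrees of freedom. Two-sided p-values were adjusted by the Benjamini-Hochberg method across all probes of a comparison, at a threshold of 0.05. No low-signal filter was applied, and changes of genes near background are understated. The average response was the mean of the 3 wound groups minus uninjured skin. SD is over arrays and SE is from the fit. Adjusted p-values given without a time are, for a lasting call under an alternative, the largest of the 3.

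Symbols came from the array's annotation (10951 probes with 1 symbol, 9084 with none, 8639 genes), and the probe with the highest mean over 12 arrays represented a gene. Named were the 20 lasting higher and 20 lasting lower genes with the largest smallest-of-3 change, up to 4 lasting members of each list, the 10 largest opposite changes and genes the study names. Not all of these are described, and some further genes were named after their values were seen. KRT15 has no probe with that symbol. The members and 38 gene lists were chosen with earlier results of these data known. A further 3 lists (ribosome biogenesis factors, amino acid transporters and mitochondrial ribosomal proteins), and the comparison of each array with the others of its group, were added after values were seen. Lists were counted and not tested.

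The fit was tested on simulated data. Alternatives were filters on low signal, quantile normalisation, subtraction of array medians, array weights, a mean-variance trend, a replicate block, control probe sets kept, a stricter threshold, at least 2-fold, marker means as covariates, other adjustments, only the compared arrays in the fit, the mean of a gene's probes and each array left out. An intensity carries no depth of counting, so precision is limited by the number of arrays.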

Additional observations from a re-analysis of the deposited data

Results flagged for a closer look

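In the genes named here, the change against uninjured skin at 21 dpi was compared with that at 2 dpi by the limma contrast of both groups, in which the uninjured arrays cancel. Each value is the log2 value at 21 dpi minus that at 2 dpi, and each passed at an adjusted p under 0.05 over all probes. The genes that turned round were COL6A3 (7.54), TAGLN (6.3), COL6A1 (5.71), CCDC80 (5.65), OLFML2B (5.6), OLFML1 (5.16), CDH11 (4.58), COL12A1 (4.53), CLEC11A (4.29) and GPM6B (3.96), all lower than uninjured skin at 2 dpi and higher at 21 dpi. They were chosen for the difference between times, so these values are a description. Among the lasting higher genes, the rise was larger at 21 dpi for COL11A1 (4.19), TMEM45A (2.92), CTHRC1 (2.53), ANGPTL2 (1.59), PAMR1 (1.26), TLL1 (1.1), TFPI (0.84), ABCA1 (0.73) and LGMN (0.37). It was smaller at 21 dpi for NPY (-2.16), CYBB (-1.03) and SDC2 (-0.54).

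Among the lasting lower genes, GNG13 (2.06), CNN1 (2.04) and SLC7A11 (0.92) were closer to uninjured skin at 21 dpi, and CYCS (-0.9), DCTPP1 (-0.88) and LIPG (-0.85) were further from it. Skeletal muscle markers had a median change of -1.49 at 2 dpi and -0.04 at 21 dpi and moved with the rises from 2 to 21 dpi. Their part in these differences was not tested. Over all probes the number called between 21 and 2 dpi was 4369, and 2738 without 21 dpi replicate 3, the array that lay between the other 21 dpi arrays.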

How the results depend on the processing

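Filters on low signal, other normalisations, a mean-variance trend and keeping the control probe sets left every count within 1.5 times its value. In what follows lasting counts are probes higher and lower, then genes higher and lower (210, 139, 103 and 69 in the text). They were 504, 580, 254 and 218 with array weights, which gave 21 dpi replicate 3 a weight of 8.39, against 0.359 to 1.92 for the others, 53, 29, 27 and 14 at an adjusted p under 0.01, 60, 46, 28 and 15 with at least 2-fold at every time, 85, 43, 43 and 18 with the muscle covariate, 105, 91, 47 and 46 with the epidermal covariate, 341, 401, 177 and 141 without uninjured replicate 3 and 14 dpi replicate 2, the 2 arrays least like their own groups, 28, 17, 13 and 9 with the largest of the 3 p-values adjusted, and 65, 25, 29 and 10 with only the compared arrays in the fit. With each array left out they were 86 to 328, 53 to 412, 43 to 174 and 25 to 142. Of the 172 genes, 170 kept the call with array weights, 47 with the muscle covariate, 72 with the epidermal covariate, 79, 70 and 140 without uninjured replicate 1, 2 and 3, and 93 without 21 dpi replicate 3.

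The average response was called in 2051 probes, in 4343 with array weights, 619 at 0.01, 494 with at least 2-fold, 721 with only the compared arrays, and 750 to 2661 with each array left out (lowest without uninjured replicate 2). The difference between 21 and 2 dpi was called in 4369 probes, in 7593 with array weights, 2048 at 0.01, 1622 with at least 2-fold, 957 with the muscle and 405 with the epidermal covariate, and 2738 to 4781 with each array left out. Any difference among the wound times was called in 3188, in 7170 with array weights, 1344 at 0.01, 773 and 298 with the covariates, and 1759 to 3715 with each array left out. Opposite calls were 128, 426 with array weights, 23 at 0.01, 41 and 35 with the covariates, 224 without those 2 arrays, and 41 to 218 with each array left out. Probes without overlap were 1192, 3369 without those 2 arrays, and 1253 to 3220 with each array left out. TP63 at 21 against 2 dpi, not called, turned from negative to 0.55 with the epidermal covariate (adjusted p = 0.425). The causes were not tested.

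With the replicate number as a block, 160 probes were lasting and higher and 95 lower, for 75 and 48 genes, and 116 of the 172 genes kept the call. Nothing in the labels says that equal numbers share an animal. To look for such pairing, the group mean of each probe was subtracted from its values. These deviations correlated over 0.1 in 5 of 18 pairs of same-numbered arrays from different groups (range -0.65 to 0.48). By the same deviations, 4 of 12 arrays were closest to an array of their own number among the other groups.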

Other observations

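Of the 210 lasting higher probes 89, and of the 139 lasting lower probes 56, have no gene symbol in the annotation used here. The same holds for 9084 of all 20035 probes, so these counts are no trait of the lasting response. The probe axo24047-f_at read 11.16, 12.31 and 12.83 at 2 dpi, 9.86, 7.85 and 10.17 at 14 dpi and 7.20, 7.72 and 7.53 at 21 dpi, against 4.77, 5.28 and 5.37 in uninjured skin. The probe axo30211-f_at was higher by 2.98, 3.35 and 3.44 on the log2 scale at the 3 times. The probe axo09602-f_at read 4.75, 5.28 and 4.46 at 2 dpi, 6.22, 10.17 and 5.52 at 14 dpi and 9.07, 7.30 and 8.21 at 21 dpi, against 12.20, 11.27 and 12.20 in uninjured skin, and axo10182-f_at had changes of -6.12, -3.20 and -2.25.

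Another 21 genes were lasting only on a probe that does not represent them. The red cell and haem genes were higher in wounds on average in 4 of 17 measured genes, against 6.56% of all genes, with none lasting. The pigment cell list of 14 genes had only KIT as a lasting member (7.14% lower, against 0.799% of all genes), a count too small to compare.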
